A study of Gossypium hirsutum with 6 samples.

Results

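The TOR kinase, its partners and its S6 branch were followed at the RNA level in cotton seedlings. A gene of the deposited table was counted as a copy of a component when its matched Arabidopsis locus was that of TOR (AT1G50030), RAPTOR1A (AT5G01770), RAPTOR1B (AT3G08850), LST8-1 (AT3G18140), FKBP12 (AT5G64350), TAP46 (AT5G53000), S6K1 (AT3G08730), S6K2 (AT3G08720), RPS6A (AT4G31700) or RPS6B (AT5G10360). These 10 loci gave 50 of the 70478 genes in the table, 25 on chromosomes of the A subgenome, 20 on those of the D subgenome and 5 on scaffolds. The rule reads the matched locus and no FPKM value, and a name such as RPS6A is that of the match in Arabidopsis. For TOR, RAPTOR, LST8, TAP46, S6K and RPS6 the study lists fewer cotton homologs, under other gene IDs. Whether each match counted here is a separate whole gene was not examined.

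The plants were wild-type upland cotton (Gossypium hirsutum) of the cultivar CCRI24. Seedlings 4 d old were moved to MS medium that held either 5 μM AZD or only its solvent, DMSO, and whole seedlings were taken after 24 h, at a labelled age of 5 d. AZD is AZD8055, which competes with ATP at the catalytic site of TOR. Each treatment has 3 libraries that the study calls biological repeats. AZD acts on the TOR protein, so no transcript level among these genes can check the labels. The signs of change that the study tabulates for single genes run opposite, for nearly all of them, to the signs that these labels give in the deposited values. For some of these genes the study also reports quantitative PCR, with the same directions as its tabulated signs. The labels of the 2 groups may therefore be exchanged, and the sources used here do not settle it. Every direction given rests on the labels, and if they are exchanged each fold change keeps its size and its test and takes the opposite sign, so that lower under AZD reads higher. Values given as under DMSO or under AZD are those of the 3 libraries with that label, in the order of replicates 1, 2 and 3.

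TOR is a protein kinase that couples the supply of nutrients and energy to growth. In its complex, RAPTOR brings substrates to the kinase and LST8 binds and steadies the kinase domain. FKBP12 is the small immunophilin through which the drug rapamycin reaches TOR in yeast and animals. TOR phosphorylates S6 kinases (S6K), which in turn phosphorylate RPS6, a protein of the small (40S) subunit of the cytosolic ribosome. TAP46, a regulatory partner of the phosphatase PP2A, is another substrate of TOR in Arabidopsis. All of these steps are changes to proteins, whereas only RNA was measured here.

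RNA of the ribosomal protein S6 genes was lower in the libraries labelled AZD in 3 copies, and no copy of the kinase, its partners or the S6 kinases passed the test in either direction. With the labels exchanged these 3 copies would be higher. The 3 copies are Gh_A04G0977 and Gh_D04G1521, both matched to RPS6A, and Gh_A12G0794, matched to RPS6B. They stood at 36.6%, 50.7% and 53.9% of their mean in the libraries labelled DMSO. Of the 50 copies, 42 had a mean of at least 0.5 FPKM (fragments per kilobase of transcript, scaled to those mapped in the library) over the 6 libraries and were tested with limma on log2(FPKM + 0.5), two-sided, with Benjamini-Hochberg adjustment over all 43158 tested genes and a threshold of 0.05. Past this test were 3 of the 42, all lower, which is 7.14%, while 4.69% of all tested genes passed, 2.80% lower and 1.89% higher. An unadjusted p under 0.05 was found in 13 of the 42 copies, all lower, against 11.9% of all tested genes lower and 11.4% higher (23.4% in either direction). Over the 42 copies the median log2 fold change was −0.23, against −0.01 for all tested genes. The groups did not overlap in 18 copies that were lower in the libraries labelled AZD (42.9%) and in 1 that was higher (2.38%), and over all tested genes these shares were 15.5% and 14.5% (30.0% in either direction). Copies of 1 locus are alike in sequence and can share reads, so that they are not independent of each other, and how reads with several matches were divided is not given in the sources used here. In RNA of whole seedlings, fewer cells of a type and less RNA per cell cannot be told apart.

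**Figure D1:**
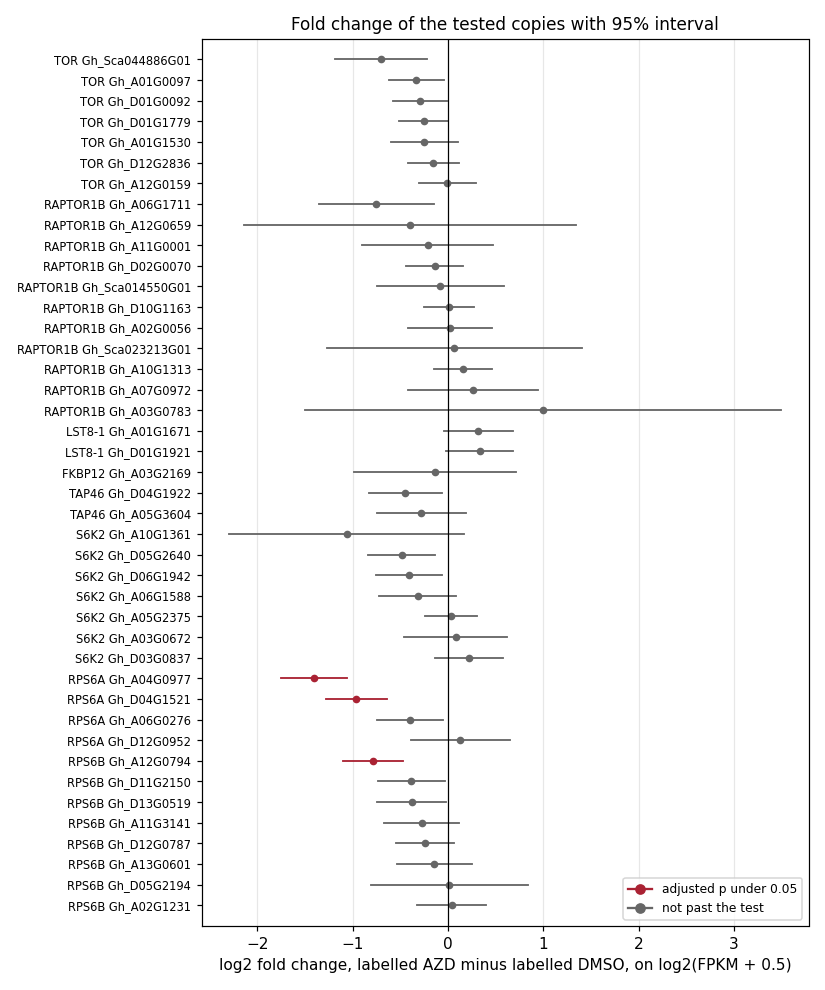
Log2 fold change of the 42 tested copies (x axis, libraries labelled AZD minus libraries labelled DMSO, on log2(FPKM + 0.5)), one row a copy, with the 95% interval from limma as a line. The 3 copies with an adjusted p under 0.05 are in red, all of them RPS6 copies to the left of 0 as the libraries are labelled, and the widest intervals belong to RAPTOR1B copies with uneven libraries.

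By the median of ratios the libraries were comparable in scale, but they were not comparable in composition. Factors from that median lay between 0.993 and 1.03. Genes matched to chloroplast loci took 20.3% to 32.1% of the FPKM in the libraries labelled DMSO and 27.5% to 31.1% in those labelled AZD, leaving out the 3 genes with the highest mean, which held 56.0% to 73.9% of each library's sum. The highest chloroplast share, 32.1%, was in DMSO replicate 1, and in DMSO replicates 2 and 3 it was 20.3% and 21.2%. The lowest share of the 3 highest genes, 56.0%, was in AZD replicate 2, which also had the lowest FPKM sum. That sum was 2773880, against 4236812 to 6222402 in the other libraries. The part of these shares and sums in the differences between groups was not tested. The number of reads behind a value was not used here, so its counting error is unknown except at the low copies described further on.

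RPS6A held both copies with the lowest adjusted p. Its copy Gh_A04G0977 stood at 24.1, 30.0 and 26.1 FPKM under DMSO and 10.8, 9.79 and 8.73 under AZD. The lowest library labelled DMSO was thus above the highest labelled AZD by more than a doubling. The mean fell from 26.8 ± 3.02 to 9.78 ± 1.05 FPKM (SD, n = 3), a log2 fold change of −1.41 with a standard error of 0.14 (limma adjusted p = 0.00901). Its counterpart on chromosome D04, Gh_D04G1521, stood at 41.4, 46.6 and 37.9 FPKM under DMSO and 20.1, 22.9 and 20.9 under AZD. Here, too, the groups lay far apart, at a log2 fold change of −0.96 with a standard error of 0.13 (limma adjusted p = 0.0209). DMSO replicate 1, whose chloroplast share was the highest, lay with the other libraries labelled DMSO at both copies. That is 1 library, and the part of the chloroplast share in these differences was not tested. Gh_A04G0977 ranked 193 and Gh_D04G1521 ranked 564 by p among the 43158 tested genes.

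The call of Gh_A04G0977 held with any library left out except AZD replicate 2, without which the adjusted p was 0.0529, and its log2 fold change lay between −1.48 and −1.32. Gh_D04G1521 stayed past the test without DMSO replicates 1 or 2. Its adjusted p was 0.0509 without DMSO replicate 3 and 0.110, 0.0780 and 0.0880 without AZD replicates 1, 2 and 3. Its log2 fold change lay between −1.03 and −0.88 in these cases. Over all genes the number of calls went from 2025 to between 199 and 1087 in 5 of the 6 cases, and to 3590 without DMSO replicate 1.

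The remaining RPS6A copies were not past the test. Gh_A06G0276 stood at 10.2, 11.4 and 12.9 FPKM under DMSO and 9.58, 8.53 and 7.67 under AZD, without overlap (log2 fold change −0.40, adjusted p = 0.163). Gh_D12G0952, the lowest of the tested RPS6A copies, stood at 1.16, 1.61 and 1.76 FPKM under DMSO and 1.32, 1.60 and 2.23 under AZD, with a 95% interval of the log2 fold change from −0.38 to 0.65. Gh_D05G3404 was listed at 0 in all 6 libraries.

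Among the RPS6B copies, Gh_A12G0794 was the one past the test. It stood at 5.15, 4.65 and 5.43 FPKM under DMSO and 2.46, 2.65 and 3.08 under AZD. The groups were well apart, at a log2 fold change of −0.79 with a standard error of 0.13 (limma adjusted p = 0.0301). With 1 library left out it passed only without DMSO replicate 1 (adjusted p = 0.0389), and the adjusted p was 0.0549 to 0.132 in the other 5 cases.

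The more abundant RPS6B copies moved less. Gh_A02G1231, the highest of all RPS6 copies, stood at 62.3, 71.4 and 64.0 FPKM under DMSO and 76.3, 68.2 and 59.5 under AZD. The 2 groups overlapped, and the 95% interval of its log2 fold change ran from −0.32 to 0.40. A further 3 copies lay lower in every library labelled AZD without passing the test. Gh_D12G0787 stood at 39.5, 43.1 and 41.2 FPKM under DMSO and 38.4, 33.1 and 33.4 under AZD (log2 fold change −0.24, adjusted p = 0.315). Gh_D13G0519 stood at 24.3, 30.8 and 28.3 FPKM under DMSO and 20.6, 23.9 and 19.2 under AZD (log2 fold change −0.38, adjusted p = 0.194). Gh_D11G2150 stood at 8.50, 8.69 and 9.95 FPKM under DMSO and 7.53, 7.30 and 5.72 under AZD (log2 fold change −0.38, adjusted p = 0.186). In each of these copies the gap between the groups was smaller than the range within either. The groups overlapped in the other 3 tested RPS6B copies, Gh_A13G0601, Gh_A11G3141 and Gh_D05G2194, with log2 fold changes of −0.14, −0.28 and 0.01, and the last is the lowest tested RPS6 copy, at 0.712, 1.82 and 1.29 FPKM under DMSO and 2.07, 0.949 and 0.888 under AZD. Gh_D05G2940, at 0.106 to 0.455 FPKM, was under the limit on low values.

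**Figure D2:**
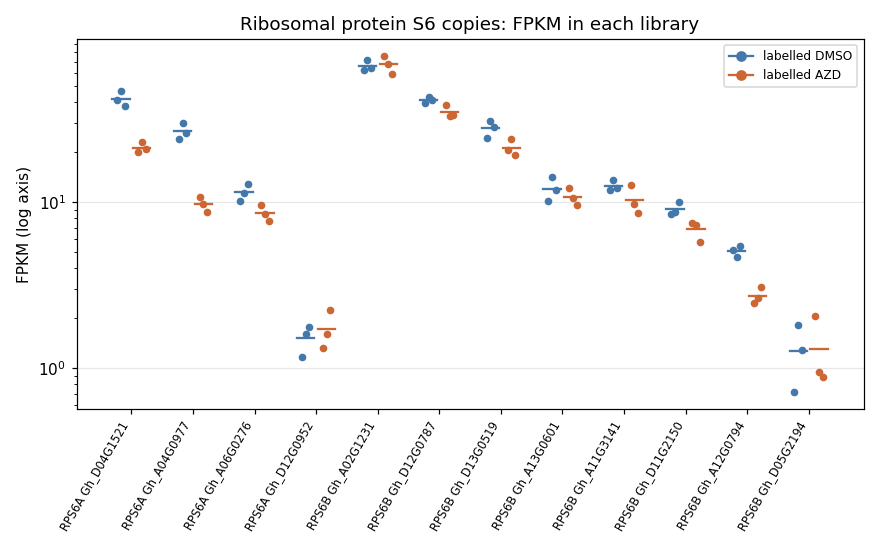
FPKM (y axis, logarithmic) of the 12 tested RPS6 copies in each library, points for libraries and bars for the mean of 3, blue for DMSO and orange for AZD. The groups stand clearly apart at Gh_D04G1521, Gh_A04G0977 and Gh_A12G0794, while at Gh_A02G1231, the highest copy, they overlap.

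In the summed RPS6 RNA, the share of the RPS6A copies was lower in every library labelled AZD. Summed over all copies, RPS6 stood at 240, 278 and 253 FPKM under DMSO and 214, 199 and 180 under AZD. RPS6A copies gave 32.1%, 32.3% and 31.1% of that sum under DMSO and 19.5%, 21.5% and 22.0% under AZD. The chromosome 4 pair alone gave 27.4%, 27.6% and 25.3% against 14.4%, 16.4% and 16.5%. The sum over RPS6B copies, at 163, 188 and 174 FPKM under DMSO and 173, 156 and 141 under AZD, overlapped between the groups. These sums are descriptions and were not tested. The chromosome 4 pair is made of the called copies Gh_A04G0977 and Gh_D04G1521, so its share and that of RPS6A restate those calls.

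Other proteins of the 40S subunit gave a setting for the RPS6 copies. Of 83 listed Arabidopsis loci for cytosolic 40S proteins other than RPS6, 43 had cotton matches, with 225 tested genes. Of these, 13 were lower under AZD (5.78%) and 0 higher in limma (with 42 at an unadjusted p under 0.05, 33 lower and 9 higher). Over all tested genes 2.80% were called lower and 1.89% higher, and 23.4% had an unadjusted p under 0.05 (limma). Their median log2 fold change was −0.06, and that of the 12 tested RPS6 copies, of which 3 were lower, was −0.33. The largest falls past the test were in Gh_D08G2623 and Gh_D09G1428. The first, matched to RPS12C, stood at 5.49, 1.14 and 1.85 FPKM under DMSO and was listed at 0 under AZD (adjusted p = 0.0411). The second, matched to RPS23B, a protein near the decoding centre of the ribosome, stood at 78.6, 99.0 and 76.3 FPKM under DMSO and 36.7, 29.1 and 33.0 under AZD (log2 fold change −1.34, adjusted p = 0.0149). The level of RPS6 relative to these genes as a group overlapped between the treatments. Per 1000 FPKM summed over the other 40S genes there were 20.0, 16.2 and 19.7 FPKM of RPS6 under DMSO and 16.6, 20.6 and 16.3 FPKM under AZD. That sum was uneven, at 12002, 17177 and 12870 FPKM under DMSO. High genes such as Gh_A05G0203, matched to RPS30A, weigh on it, at 688, 1867 and 1205 FPKM under DMSO. The overlap therefore does not show that RPS6 and the other 40S genes changed alike. With 1 library left out, the count of lower 40S genes was 18, 3 and 2 on omitting DMSO replicates 1, 2 and 3 in turn, and 0 on omitting any of the libraries labelled AZD (limma, 33 to 38 at an unadjusted p under 0.05 in these last 3 cases).

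TOR itself had 7 matched genes, all between 2.10 and 7.89 FPKM and none past the test. In 6 of them every library labelled AZD was below every library labelled DMSO, as in 15.5% of all tested genes. The 7 matches can share reads, so the 6 are not separate observations. The highest, Gh_D01G0092, stood at 6.60, 7.89 and 7.45 FPKM under DMSO and 6.09, 5.85 and 5.66 under AZD (log2 fold change −0.29, adjusted p = 0.203). Gh_A01G0097 stood at 6.06, 7.19 and 7.22 FPKM under DMSO and 5.31, 5.35 and 5.28 under AZD (log2 fold change −0.33, adjusted p = 0.163). The libraries labelled AZD were nearly equal in this copy, and DMSO replicate 1 was the closest to them in both.

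A second set of TOR matches lies on the same chromosomes. Gh_D01G1779 stood at 4.52, 4.59 and 4.78 FPKM under DMSO and 4.02, 3.76 and 3.64 under AZD (log2 fold change −0.25, adjusted p = 0.219). Gh_A01G1530 stood at 3.32, 3.42 and 3.13 FPKM under DMSO and 2.85, 3.09 and 2.21 under AZD (log2 fold change −0.25, adjusted p = 0.366). On chromosome 12, Gh_D12G2836 stood at 4.25, 4.29 and 4.21 FPKM under DMSO and 3.83, 4.04 and 3.48 under AZD (log2 fold change −0.15, adjusted p = 0.468). In Gh_A01G1530 and Gh_D12G2836 the range under AZD was wider than the gap between the groups. Gh_A12G0159 was the exception among the 7, with 2.52, 2.10 and 2.42 FPKM under DMSO and 2.37, 2.20 and 2.43 under AZD and a 95% interval of the log2 fold change from −0.31 to 0.30.

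The largest fold change of a TOR match was on a scaffold. Gh_Sca044886G01 stood at 5.05, 6.54 and 3.78 FPKM under DMSO and 2.82, 2.62 and 3.21 under AZD, a log2 fold change of −0.71 with a standard error of 0.20 (adjusted p = 0.102). Summed over the 7 genes, TOR stood at 32.3, 36.0 and 33.0 FPKM under DMSO and 27.3, 26.9 and 25.9 under AZD. Whether each of the 7 is a whole TOR gene or a part of one was not examined, since no gene model was used here. By their mean over the 6 libraries the order was Gh_D01G0092, Gh_A01G0097, Gh_D01G1779, Gh_D12G2836, Gh_Sca044886G01, Gh_A01G1530 and Gh_A12G0159, at 6.59, 6.07, 4.22, 4.02, 4.00, 3.0 and 2.34 FPKM. The ranges over the 6 libraries overlapped between all neighbours in this order except Gh_A01G0097 and Gh_D01G1779.

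**Figure D3:**
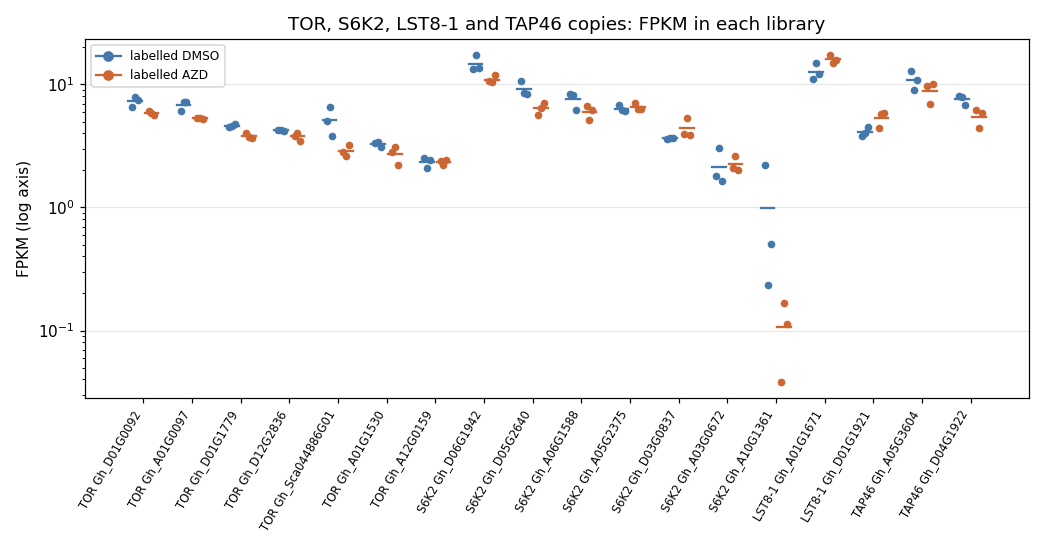
FPKM (y axis, logarithmic) of the tested copies of TOR, S6K2, LST8-1 and TAP46 in each library, points for libraries and bars for the mean of 3, blue for DMSO and orange for AZD. Most TOR copies lie slightly lower in the orange libraries, S6K2 copies go both ways, and Gh_A10G1361 is far below the rest with widely spread libraries.

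S6 kinase matches fell on 1 of the 2 Arabidopsis loci: 8 cotton genes matched S6K2 and none was assigned to S6K1. Of the 7 tested, none passed the test, and 2 had an unadjusted p under 0.05, both lower. Over all tested genes 11.9% had such a p and were lower (limma). Gh_D05G2640 stood at 10.6, 8.50 and 8.41 FPKM under DMSO and 5.65, 6.47 and 7.05 under AZD (log2 fold change −0.48 with a standard error of 0.15 and an adjusted p = 0.114). Gh_D06G1942, the highest of them, stood at 13.4, 17.3 and 13.7 FPKM under DMSO and 10.6, 10.4 and 11.9 under AZD (log2 fold change −0.41, adjusted p = 0.157). In both copies every library labelled AZD was below every library labelled DMSO.

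Other S6K2 copies of the same chromosome groups did not show that gap. Gh_A05G2375 stood at 6.79, 6.19 and 6.12 FPKM under DMSO and 7.03, 6.26 and 6.34 under AZD, with a 95% interval of the log2 fold change from −0.24 to 0.31. Gh_A06G1588 stood at 8.44, 8.28 and 6.16 FPKM under DMSO and 6.63, 5.14 and 6.21 under AZD (log2 fold change −0.32, adjusted p = 0.315). On chromosome 3 the values leaned the other way. Gh_D03G0837, at 3.59, 3.66 and 3.69 FPKM under DMSO and 3.93, 5.34 and 3.90 under AZD, was the 1 tested copy of all 42 whose groups did not overlap in the upward direction (log2 fold change 0.22, adjusted p = 0.419), and AZD replicate 2 stood out in it. Gh_A03G0672 stood at 1.79, 3.02 and 1.64 FPKM under DMSO and 2.09, 2.64 and 2.01 under AZD, overlapping. Summed over its 8 genes, S6K2 stood at 47.4, 47.4 and 40.7 FPKM under DMSO and 36.0, 36.5 and 37.5 under AZD, a sum that was not tested.

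The S6K2 copies on chromosome 10 were scarce. Gh_A10G1361 stood at 2.21, 0.235 and 0.503 FPKM under DMSO and 0.0384, 0.168 and 0.113 under AZD (log2 fold change −1.06 with a standard error of 0.51 and an adjusted p = 0.274), without overlap and with DMSO replicate 1 far above the rest. Low values come in steps, and the commonest ratio between libraries among genes under 0.1 FPKM gives what 1 fragment is worth in each. If the smallest value is 1 fragment, Gh_A10G1361 had 57, 7 and 19 fragments under DMSO and 1, 4 and 3 under AZD, each within 0.02 of a whole number. Gh_D10G1109, which was under the limit on low values, stood at 0.619, 0.201 and 0.449 FPKM under DMSO and 0.0383, 0.0418 and 0 under AZD. On the same reading these are 16, 6 and 17 fragments against 1, 1 and 0. With no limit on low values its log2 fold change was −0.78, with a limma adjusted p of 0.146. On that scale the 0.5 FPKM added exceed each of its values but that of DMSO replicate 1.

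RAPTOR matches were numerous, and the 95% intervals of their fold changes ran from narrow to wide. For the wide ones a lack of calls does not show a lack of change. The 11 genes matched to RAPTOR1B were all tested, none passed, and their median log2 fold change was 0.01. Gh_D10G1163 stood at 5.32, 5.59 and 5.49 FPKM under DMSO and 5.73, 5.66 and 5.16 under AZD, and its 95% interval ran from −0.25 to 0.27 on the log2 scale. Gh_A10G1313 stood at 4.41, 4.29 and 5.00 FPKM under DMSO and 5.12, 5.71 and 4.64 under AZD, and both copies of the chromosome 10 pair overlapped between the groups. For the chromosome 2 pair, Gh_D02G0070 stood at 3.24, 3.74 and 3.75 FPKM under DMSO and 3.23, 3.45 and 2.93 under AZD, and Gh_A02G0056 at 2.26, 3.22 and 2.77 FPKM under DMSO and 2.81, 3.35 and 2.25 under AZD. These 4 copies had the smallest standard errors of the RAPTOR1B matches, 0.11 to 0.18.

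Gh_A06G1711 was the RAPTOR1B match with the clearest gap. It stood at 3.27, 2.75 and 2.70 FPKM under DMSO and 1.04, 2.43 and 1.33 under AZD, without overlap and not past the test (log2 fold change −0.75 with a standard error of 0.25 and an adjusted p = 0.145). Other matches varied widely between libraries of 1 group. Gh_Sca023213G01, by far the highest, stood at 320, 84.9 and 254 FPKM under DMSO and 183, 139 and 314 under AZD. Gh_A03G0783 stood at 0, 5.18 and 4.48 FPKM under DMSO and 3.15, 2.16 and 11.1 under AZD, with a 95% interval of the log2 fold change from −1.50 to 3.49. Gh_A12G0659 was listed at 0 in DMSO replicate 2 and AZD replicate 2 and stood at 0.575 to 2.44 FPKM in the other 4 libraries.

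The remaining RAPTOR1B matches overlapped between the groups as well. Gh_Sca014550G01 stood at 19.1, 12.8 and 17.5 FPKM under DMSO and 22.7, 13.4 and 11.9 under AZD. Gh_A07G0972 stood at 2.54, 3.46 and 2.27 FPKM under DMSO and 4.77, 2.12 and 3.68 under AZD, and Gh_A11G0001 at 1.29, 0.816 and 0.779 FPKM under DMSO and 0.735, 1.17 and 0.433 under AZD. The matches of this locus thus lay at very unlike levels, and whether each encodes a whole RAPTOR was not examined. The 2 genes matched to RAPTOR1A were listed at 0 in all 6 libraries.

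LST8-1, the partner that binds the kinase domain, leaned upward in both of its copies without passing the test. Gh_A01G1671 stood at 11, 15.0 and 12.2 FPKM under DMSO and 17.2, 14.9 and 15.8 under AZD (log2 fold change 0.32, 95% interval −0.04 to 0.68, adjusted p = 0.262). Gh_D01G1921 stood at 3.84, 4.06 and 4.51 FPKM under DMSO and 4.44, 5.80 and 5.88 under AZD (log2 fold change 0.33, 95% interval −0.02 to 0.69, adjusted p = 0.235). In each copy 1 library labelled AZD lay within the range of the libraries labelled DMSO. Their sum, at 14.9, 19.1 and 16.7 FPKM under DMSO and 21.6, 20.7 and 21.7 under AZD, did not overlap, and it was not tested.

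FKBP12 had a single match, Gh_A03G2169, at a high and uneven level. It stood at 132, 306 and 239 FPKM under DMSO and 239, 147 and 207 under AZD, so that the groups overlapped entirely, and the 95% interval of the log2 fold change ran from −0.99 to 0.72.

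TAP46 had 5 matches, of which 2 were tested. Gh_D04G1922 stood at 8.03, 7.93 and 6.81 FPKM under DMSO and 6.16, 4.40 and 5.86 under AZD, without overlap (log2 fold change −0.45 with a standard error of 0.16 and an adjusted p = 0.160). Gh_A05G3604 stood at 12.8, 9.02 and 10.8 FPKM under DMSO and 9.72, 6.97 and 10 under AZD and overlapped (log2 fold change −0.28, adjusted p = 0.448). AZD replicate 2 was the lowest library in both. The 3 untested TAP46 genes were at or below 0.347 FPKM in every library, and Gh_Sca125516G01 among them was listed at 0 throughout.

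FPKM are per length, so the A and D copies of 1 locus were set side by side within a library. Such a comparison takes both gene models as whole, which was not examined. The pairs rest on locus and chromosome number, with no sequence compared. In 11 pairs, 1 tested copy lay on an A chromosome and 1 on the D chromosome of the same number, with no other match of that locus on either. The D copy was above the A copy in all 6 libraries in 7 pairs, and the A copy was above in all 6 in 2 pairs, LST8-1 and RPS6B on chromosome 11. The order changed between libraries in the other 2, RAPTOR1B on chromosome 10 and S6K2 on chromosome 5. For LST8-1 the A copy gave 75.3% ± 3.01 (SD, n = 3) of the pair under DMSO and 74.8% ± 4.08 under AZD. The most uneven pair was RPS6B on chromosome 12, where Gh_A12G0794 gave 11.5%, 9.73% and 11.6% of the pair under DMSO and 6.02%, 7.43% and 8.44% under AZD. Near balance was found for RAPTOR1B on chromosome 10, at 45.4% ± 2.13 and 48.3% ± 1.71.

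The share of the A copy did not overlap between the groups in 3 of the 11 pairs. In the chromosome 4 pair of RPS6A it was 36.8%, 39.2% and 40.8% under DMSO and 35%, 30.0% and 29.5% under AZD. The RPS6B pair on chromosome 12 was also lower, by 3.66 percentage points in the mean, while S6K2 on chromosome 5 was higher, at 39.1%, 42.1% and 42.1% against 55.4%, 49.2% and 47.3%. An exact permutation test, two-sided, gave p = 0.1 for each of the 3, the smallest that 3 libraries against 3 can give, and 0.367 after adjustment over the 11 pairs (exact permutation p of 0.2 to 0.9 in the other 8). How many A/D pairs over the whole table show such a lack of overlap was not computed, so the 3 of 11 have no background to be read against. Such shares rest on reads being told apart between close copies.

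**Figure D4:**
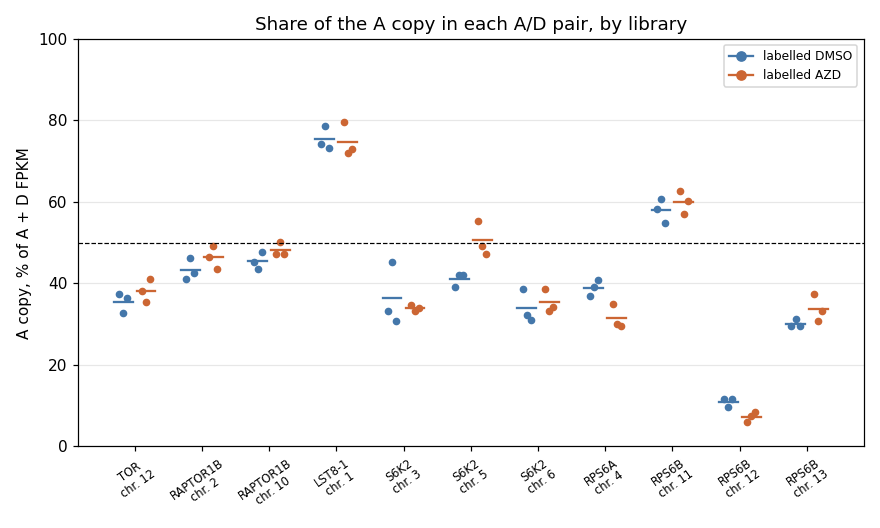
Share of the A copy in the summed FPKM of each of 11 A/D pairs (y axis, percent), by library, with bars for the mean of 3, blue for DMSO and orange for AZD, and a dashed line at equal levels. The groups do not overlap for S6K2 on chromosome 5, RPS6A on chromosome 4 and RPS6B on chromosome 12. None of these passed adjustment (exact permutation test, adjusted p = 0.367 for each).

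Other genes around TOR did not pass the test. The list of 33 Arabidopsis loci around TOR covers upstream kinases such as the SnRK1 subunits and PDK1, PP2A and its partner TIP41, downstream factors such as TCTP and E2F, and the ATG1-ATG13 complex that starts autophagy. It had 106 tested cotton genes at 27 of these loci. None was called by limma in either direction, with a smallest adjusted p of 0.0733, against 4.69% of all tested genes. An unadjusted p under 0.05 was found in 11, 10 of them lower, against 23.4% of all tested genes (limma). Their log2 fold changes had a median of −0.01, as over all tested genes. The groups did not overlap in 15 genes that were lower (14.2%) and 7 that were higher (6.60%). Over all tested genes these shares were 15.5% and 14.5%, so the lower share was near that of all genes. By subgroup, the median was 0.12 for 32 upstream kinase and GTPase genes, −0.03 for 32 genes of PP2A and its partners, −0.09 for 27 downstream factors and −0.04 for 15 genes of the ATG1-ATG13 complex.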

How the data were processed

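Whole-seedling RNA of 6 libraries was analysed, 3 labelled DMSO and 3 labelled AZD (5 μM). Per the labels and the study's methods, the authors mapped the reads with TopHat2, assembled them with Cufflinks and compared groups with Cuffdiff. The deposited FPKM values were used unchanged. The methods name a directional NEB kit and the labels an Illumina TruSeq kit. For tool versions, genome build and rescaling between libraries, nothing was found in the sources. All 6 value columns were used and 0 were left out. Names come from the table's Arabidopsis match, as the RefSeq gene list held 0 of its gene IDs, so no sequence or coordinate is printed.

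All genes averaging 0.5 FPKM or more were fitted with limma 3.58.1 (R 4.3.3, with trend) on log2(FPKM + 0.5), which understates the change of low genes. Permutation tests and joins ran in Python 3.11.15 with scipy 1.17.1, numpy 2.4.6 and pandas 2.3.3. No count model was used. The test was tested on simulated data. The p-values measure the spread between libraries. Members, lists and tests were chosen with earlier results of these data known. Every copy was to be named, RPS6 copies chiefly by call, lack of overlap or extreme level, and of other lists the 2 largest changes past the test in each direction. Alternatives were a pseudocount of 0.1 or 1, no limit on low values or 1 FPKM, median-of-ratios or quantile scaling, no trend, a replicate block, each library left out and, for fold changes, the ratio of means.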

Additional observations from a re-analysis of the deposited data

How the results depend on the processing

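The count of 3 lower copies held under both other pseudocounts, a limit of 1 FPKM, both rescalings and limma without its trend. It was 2 without a limit on low values. The median-of-ratios factors lay between 0.993 and 1.03, so rescaling by them could hardly have moved the count. With 1 library left out the count ranged from 0 to 3, with the 0 on omitting AZD replicate 2 (limma, 7 at an unadjusted p under 0.05). Deviations of same-numbered libraries from their group means correlated at 0.0182, −0.0421 and −0.0880 across genes, so no signal shared by replicate number was seen. Such correlations cannot show whether same-numbered libraries were prepared together, and the study names no pairing. With the replicate block 0 copies were called (limma, 6 at an unadjusted p under 0.05), as were 0 of the other 40S genes (34 unadjusted) and 72 of all genes. Of all tested genes 737 were called without a limit on low values and 199 to 3590 with 1 library left out, and of the other 40S genes 4 and 0 to 18. No pathway gene was called in any of these fits (limma, 5 to 13 unadjusted).

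Of 625 alternative fold changes of the 42 copies 29 changed sign, none of them at a called copy. Among them was the log2 ratio of group means of Gh_Sca023213G01, −0.051. With quantile normalization they were 0.039 for Gh_A12G0159 and −0.076 for Gh_Sca023213G01. The rest came from leaving out a library, with log2 fold changes of Gh_A02G0056 −0.10 to 0.14, Gh_A02G1231 −0.046 to 0.13, Gh_A03G0672 −0.054 to 0.31, Gh_A03G0783 −0.14 to 1.62, Gh_A03G2169 −0.48 to 0.13, Gh_A05G2375 −0.013 to 0.081, Gh_A12G0159 −0.069 to 0.040, Gh_A12G0659 −1.06 to 0.063, Gh_D05G2194 −0.27 to 0.23, Gh_D10G1163 −0.015 to 0.054, Gh_D12G0952 −0.029 to 0.27, Gh_Sca014550G01 −0.35 to 0.10 and Gh_Sca023213G01 −0.51 to 0.44. For Gh_A10G1361 the ratio of group means was −3.21 on the log2 scale, against −1.06 with 0.5 FPKM added, and the cause of the other changes was not tested.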
